A study of Mus musculus with 10 samples.

Results

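The 10 genes described here, Fkbp5, Sgk1, Tsc22d3, Zbtb16, Pdk4, Cdkn1a, Mt1, Mt2, Plin4 and Hif3a, are raised by glucocorticoid hormones in many tissues. They were measured by 13 of the 39429 probes on the array, which were all the probes whose RefSeq accession belongs to them. Hif3a had 3 probes, Cdkn1a had 2 and the other 8 genes had 1 each. All 13 passed the filter on dim probes, which kept 28682 probes. For a gene with several probes, the brightest kept probe stood for the gene unless another is named.

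The study compared the adult hippocampus of mice with a conditional knockout of DLK (cKO, n = 5) with that of DLK wild-type mice (WT, n = 5). DLK is a kinase of the Map3k12 gene that acts upstream of JNK signalling in neurons. Tamoxifen was fed to both genotypes for 3 weeks before dissection, so WT mice carried the same drug exposure as cKO mice. The sources used here do not give the recombinase, the promoter that drives it, the exons removed, or the sex and exact age of the animals.

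Glucocorticoids enter cells and bind the glucocorticoid receptor, which moves to the nucleus and binds short palindromic DNA elements near its target genes. The hippocampus is rich in both corticosteroid receptors and is one of the brain regions through which the hormone feeds back on its own release. Several of the 10 genes act as brakes on the response. Others shift fuel use from glucose to fat, bind metal ions or slow cell division.

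Each mouse had 1 array. Its RNA was labelled with Cy5, and the Universal mouse reference RNA of Stratagene was labelled with Cy3 on every array. Values are log2 ratios of Cy5 over Cy3, so a difference of 1 between genotypes is a doubling. Ratios were normalised within each array, so a level of 0 is the typical ratio of spots of like brightness, not equal raw signal. Dye effects of single probes stay in the level because no dyes were swapped. Median Cy5 signal per array lay between 146 and 202, and 69.6% to 76.1% of probes were well above background. Map3k12 was lower on all 5 cKO arrays, by 1.41 on the log2 scale (limma, SE 0.12, adjusted p = 0.000502). All 10 markers of hippocampal neurons were well above background on all 10 arrays. Arrays lay on 3 slides, each its own scan. Slide 1 held 4 cKO arrays, slide 2 held cKO replicate 2 with WT replicates 1, 2 and 4, and slide 3 held WT replicates 3 and 5.

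Sequences upstream of 3 of the genes are shown because they hold a receptor-type element or several metal-type elements close to the start. Windows of the 250 bases before each start were taken from RefSeq on assembly GRCm38.p6, and 9 of the 10 genes had at least 1 window, giving 17 windows in all. The receptor element was searched as GNACA, any 3 bases and then TGTNC, a palindrome read alike on both strands. It was present in 0.387% of 32851 windows over all genes and in 2 of the 17 windows, those of Sgk1 and Mt1. The metal response element was searched as TGCACNC or TGCGCNC on both strands and was present in 21.4% of all windows. Capitals mark both kinds of element, and each window is written 5′ to 3′ on the gene's strand, ending at the base before the start.

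Sgk1, the fifth of its 6 windows, chr10:21993640-21993889, plus strand:
Sgk1: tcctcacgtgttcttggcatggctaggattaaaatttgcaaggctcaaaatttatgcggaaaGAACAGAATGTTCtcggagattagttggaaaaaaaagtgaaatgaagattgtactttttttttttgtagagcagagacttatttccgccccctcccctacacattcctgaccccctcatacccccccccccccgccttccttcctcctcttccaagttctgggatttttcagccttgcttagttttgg
Mt1, chr8:94178839-94179088, plus strand:
Mt1: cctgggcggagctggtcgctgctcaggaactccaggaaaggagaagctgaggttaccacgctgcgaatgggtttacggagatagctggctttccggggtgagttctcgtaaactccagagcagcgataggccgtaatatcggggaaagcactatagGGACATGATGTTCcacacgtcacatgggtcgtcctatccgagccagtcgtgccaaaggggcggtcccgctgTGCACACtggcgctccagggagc
Mt2, chr8:94172368-94172617, plus strand:
Mt2: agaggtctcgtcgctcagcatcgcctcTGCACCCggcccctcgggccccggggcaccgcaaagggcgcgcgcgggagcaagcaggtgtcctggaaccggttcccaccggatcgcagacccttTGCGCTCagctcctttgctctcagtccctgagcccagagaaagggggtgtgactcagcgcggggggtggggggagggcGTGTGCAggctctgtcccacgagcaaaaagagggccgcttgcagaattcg

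In the Sgk1 window the receptor-type element GAACAGAATGTTC began 188 bases before the start. In the Mt1 window the element GGACATGATGTTC began 94 bases before the start, and a single metal-type element lay at 23 bases. The Mt2 window held 3 metal-type elements, at 223, 128 and 50 bases before the start, a number reached by 1.26% of all windows. Hif3a was the other gene with a metal-type element, at 174 bases, and none of these elements overlapped another. A match describes these letters only, and no match says only that they are not in this window.

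No difference between genotypes passed the test at any of the 13 probes. In limma's moderated test over 28682 probes, 0 of 13 passed an adjusted p under 0.05, against 3 probes in all, or 0.0105%. At an unadjusted p under 0.05 the count was also 0 of 13, against 3.82% of all probes, with 2.78% higher and 1.04% lower in cKO samples. The 2 genotypes overlapped at all 13 probes, where 0.743% of all probes had groups that did not overlap. The adjusted p was 0.99995 at each of the 13 probes. With 1 array per mouse, these p-values rest on the spread between mice of a genotype, which includes dissection and hybridisation. The moderated test also pulls the spread of each probe towards that typical of all probes. For genes of wide spread, the SEs and intervals are therefore narrower than their own mice alone would give. In tissue RNA, fewer cells of a type and less RNA per cell cannot be told apart.

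The differences, cKO minus WT, were small. They lay between -0.14 and 0.18 on the log2 scale over the 13 probes. At 1 probe per gene, 9 of the 10 genes had a higher mean in cKO samples, with a median difference of 0.12, and Pdk4 had a lower one. Over all 23574 features at 1 probe per gene, 54.8% had a higher cKO mean and the median difference was 0.0083. Averaged over the 10 genes, single mice had log2 ratios between 0.357 and 0.503 in cKO samples and between 0.0595 and 0.462 in WT samples. The lowest of these 10 averages belonged to WT replicate 5, which was the lowest WT mouse for 7 of the 10 genes. Without that mouse, Tsc22d3 and Plin4 also had a lower cKO mean, as Pdk4 did.

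**Figure D1:**
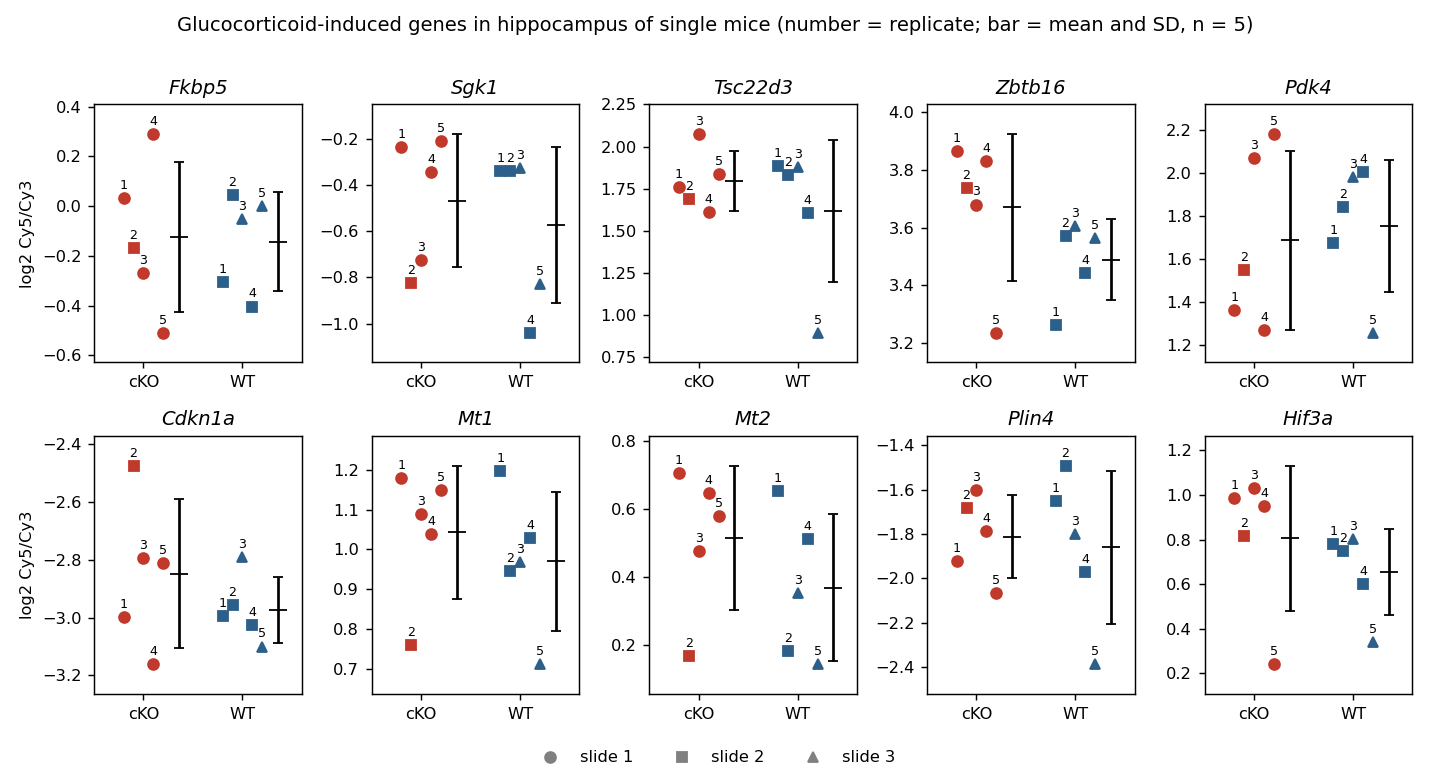
Log2 Cy5/Cy3 of each gene (vertical axis, own scale per panel) in single cKO (red) and WT (blue) mice, numbered by replicate, with the slide given by the marker shape and the mean and SD beside each group (n = 5). The genotypes overlap in all 10 panels, and WT replicate 5 lies apart from the other WT mice for Tsc22d3, at 0.89.

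Fkbp5 encodes a co-chaperone that lowers the hormone affinity of the receptor and is itself induced by it, closing a short feedback loop. Its log2 ratios were 0.03, -0.17, -0.27, 0.29 and -0.51 in cKO replicates 1 to 5, against -0.31, 0.05, -0.05, -0.40 and -0.00043 in WT replicates 1 to 5. The highest and the lowest mouse were both cKO, so the WT values lay inside the cKO range. The difference was 0.02 (SE 0.14), with a 95% interval of -0.28 to 0.32.

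Tsc22d3 encodes GILZ, a leucine zipper protein that carries much of the anti-inflammatory action of the hormone. The cKO values were 1.76, 1.69, 2.07, 1.61 and 1.84, and the WT values were 1.88, 1.83, 1.88, 1.61 and 0.89. Every mouse but WT replicate 5 lay between 1.61 and 2.07. The difference was 0.18 (SE 0.17), with a 95% interval of -0.19 to 0.54. Without WT replicate 5 it was -0.0044, so the higher cKO mean rested on that mouse.

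Sgk1 encodes a serine/threonine kinase that raises the surface density of ion channels and transporters. Its values were -0.23, -0.82, -0.73, -0.35 and -0.21 in cKO samples, against -0.34, -0.34, -0.33, -1.04 and -0.83 in WT samples. In both genotypes 3 mice were near -0.3 and 2 were well below. The difference was 0.11 (SE 0.16), with a 95% interval of -0.25 to 0.46.

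Zbtb16 encodes PLZF, a zinc finger transcription repressor. Its values were 3.87, 3.74, 3.68, 3.83 and 3.23 in cKO samples, against 3.26, 3.57, 3.60, 3.44 and 3.56 in WT samples. Of the cKO mice 4 lay above all WT mice and 1, replicate 5, lay below all of them. The difference was 0.18 (SE 0.11), with a 95% interval of -0.06 to 0.43. Without cKO replicate 5 it was 0.29, with an unadjusted p of 0.0032 in limma and an adjusted p of 0.99996. That mouse was singled out for its low value, so this p is no test of genotype.

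Hif3a encodes a member of the hypoxia-inducible factor family of which some forms oppose the other members. At its brightest probe the values were 0.99, 0.82, 1.03, 0.95 and 0.24 in cKO samples, against 0.78, 0.75, 0.80, 0.60 and 0.34 in WT samples. As for Zbtb16, 4 cKO mice lay above all WT mice and cKO replicate 5 lay below all of them. The r between both genes within genotype was 0.64, and it was -0.18 without cKO replicate 5. The difference was 0.15 (SE 0.14), with a 95% interval of -0.16 to 0.46, and it was 0.29 without cKO replicate 5 (limma, unadjusted p = 0.010). Here too the mouse was singled out for its low value, so this p is no test of genotype. The other 2 Hif3a probes were dim. Probe A_55_P2161423 was well above background on 4 cKO and 3 WT arrays and differed by -0.07 (SE 0.07). Probe A_55_P2025730 was so on 2 cKO and 4 WT arrays and differed by -0.05 (SE 0.06, limma). Both signs were opposite to that of the bright probe, within their errors.

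Pdk4 and Plin4 belong to fuel handling. Pdk4 encodes a kinase that switches off pyruvate dehydrogenase and so spares glucose. Its values were 1.36, 1.55, 2.07, 1.27 and 2.18 in cKO samples, against 1.67, 1.84, 1.98, 2.01 and 1.26 in WT samples. The 2 highest and 2 of the 3 lowest mice were cKO, and the difference was -0.07 (SE 0.19), with a 95% interval of -0.48 to 0.35. Plin4 encodes a protein that coats lipid droplets. Its values were -1.92, -1.68, -1.60, -1.79 and -2.07 in cKO samples, against -1.65, -1.49, -1.80, -1.97 and -2.39 in WT samples. WT mice spanned both the highest and the lowest value, and the difference was 0.05 (SE 0.15), with a 95% interval of -0.27 to 0.37.

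Mt1 and Mt2 encode metallothioneins, small cysteine-rich proteins that bind zinc and copper and are induced by metals as well as by the hormone. Their spots were bright, with Cy5 signals of 95181 to 127234 for Mt1. Mt1 values were 1.18, 0.76, 1.09, 1.04 and 1.15 in cKO samples, against 1.20, 0.95, 0.97, 1.03 and 0.71 in WT samples. Mt2 values were 0.70, 0.17, 0.48, 0.65 and 0.58 in cKO samples, against 0.65, 0.18, 0.35, 0.51 and 0.14 in WT samples. For both genes cKO replicate 2 and WT replicate 5 were the lowest mice of their genotype, and the genotypes covered almost the same range. The difference was 0.07 (SE 0.10) for Mt1, with a 95% interval of -0.14 to 0.28. It was 0.15 (SE 0.12) for Mt2, with a 95% interval of -0.11 to 0.40.

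Cdkn1a encodes p21, an inhibitor of cyclin-dependent kinases that the hormone, p53 and other signals raise. Its brighter probe, A_51_P363947, was printed as 10 spots, and its values were -3.00, -2.48, -2.79, -3.16 and -2.81 in cKO samples, against -2.99, -2.96, -2.79, -3.03 and -3.10 in WT samples. The highest mouse, cKO replicate 2, and the lowest, cKO replicate 4, were both cKO. The difference was 0.13 (SE 0.11), with a 95% interval of -0.11 to 0.36. The SD between single spots within an array was 0.0575 to 0.111. The value of a mouse averaged these spots, so its own spot error was smaller than that. The SD between mice was 0.26 in cKO samples and 0.12 in WT samples. The second probe, A_55_P1986282, had the opposite sign, at -0.14 (SE 0.08), with a 95% interval of -0.31 to 0.02. It was dim, with Cy5 signals of 55.5 to 99.5, and its lowest value was -0.78 in cKO replicate 5, where the other 4 cKO mice lay between -0.49 and -0.41. The 2 probes of Cdkn1a thus disagreed in sign, and neither passed.

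**Figure D2:**
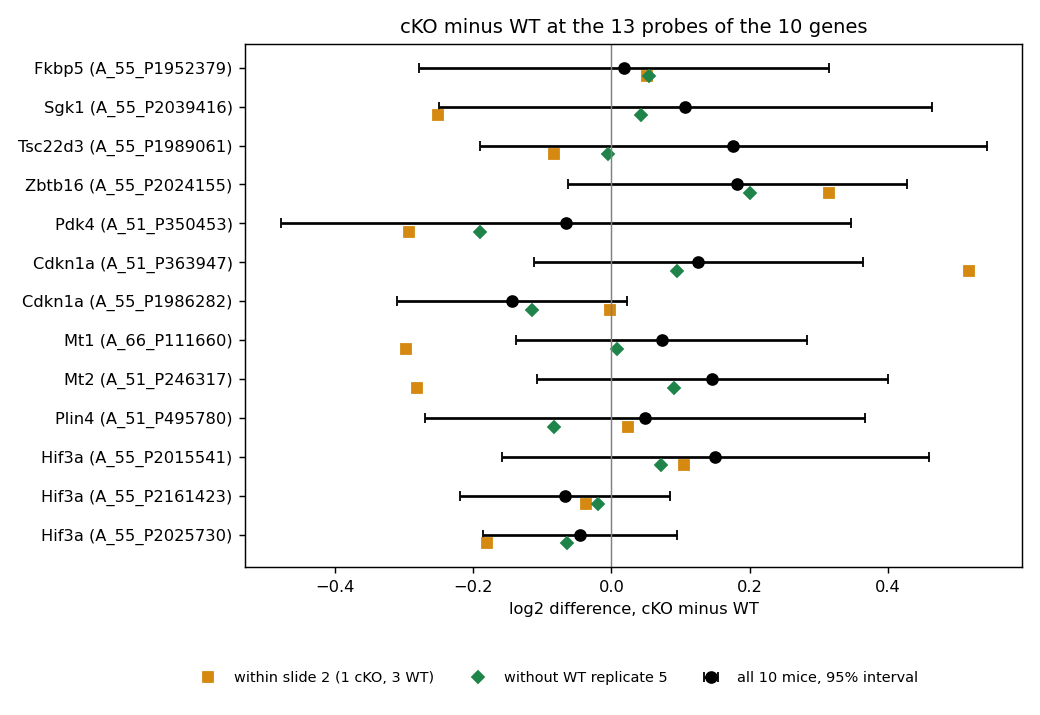
Log2 difference, cKO minus WT, at each of the 13 probes (rows), with all 10 mice (black, 95% interval), within slide 2 alone (orange, 1 cKO and 3 WT mice) and without WT replicate 5 (green). All 13 intervals include 0, and within slide 2 the values for Sgk1, Tsc22d3, Mt1 and Mt2 lie on the other side of 0.

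Slide and genotype were partly tied together, so the difference was also taken within slide 2, where a single cKO mouse met 3 WT mice. There Sgk1 differed by -0.25, Tsc22d3 by -0.08, Mt1 by -0.30 and Mt2 by -0.28, each opposite in sign to the value over all mice. Pdk4 differed by -0.29, Plin4 by 0.02, Fkbp5 by 0.05, Hif3a by 0.11 and Zbtb16 by 0.31. The bright Cdkn1a probe differed by 0.52, over 4 times its value over all mice. With slide as a fixed block in limma, which gives the same differences, 2 of the 13 probes had an unadjusted p under 0.05, against 3.75% of all probes. They were this one and Mt1, and their adjusted p was 0.917. These values all rest on cKO replicate 2, the cKO mouse with the highest Cdkn1a and the lowest Mt1, Mt2 and Sgk1. At 1 probe per gene, the other 6 genes had the same sign on slide 2 as over all mice.

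Over all mice, the spread within a genotype was wider at these genes than at the median feature. For 3 of them, leaving out 1 mouse moved the SD by over 1.5 times. Pooled within genotype, the SD between mice was 0.37 for Pdk4, 0.32 for Tsc22d3, 0.31 for Sgk1, 0.28 for Plin4, 0.27 for Hif3a and 0.26 for Fkbp5. The median over 23574 features was 0.12. These 6 genes stood between the 94.6th percentile, for Fkbp5, and the 98.9th, for Pdk4. Mt2, Zbtb16, Cdkn1a and Mt1 had SDs of 0.21, 0.21, 0.20 and 0.17, between the 77.6th and the 88.9th percentile. Among features of like brightness the 10 genes stood between the 71.1st percentile, for Mt1, and the 98.8th, for Tsc22d3. Without WT replicate 5 the SD of Tsc22d3 was 0.16, at the 77.0th percentile. Without cKO replicate 5 the SD was 0.16 for Hif3a, at the 75.1st percentile, and 0.12 for Zbtb16, at the 53.5th. Leaving out any other mouse, or the same ones at other genes, moved no SD by over 1.5 times. Below that cut, the SD of Plin4 was 0.19 without WT replicate 5, at the 87.9th percentile. Without cKO replicate 2 it was 0.14 for Cdkn1a, at the 65.4th percentile, and 0.14 for Mt1, at the 63.0th. Over the 10 arrays the highest raw Cy5 signal of these genes was 1.34 to 2.42 times the lowest, and the highest Cy3 signal was 1.09 to 1.24 times the lowest, where the median Cy5 signal of whole arrays also ranged from 146 to 202. For Tsc22d3 the Cy5 signals were 9915 to 18605 and the Cy3 signals 3677 to 4238.5.

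**Figure D3:**
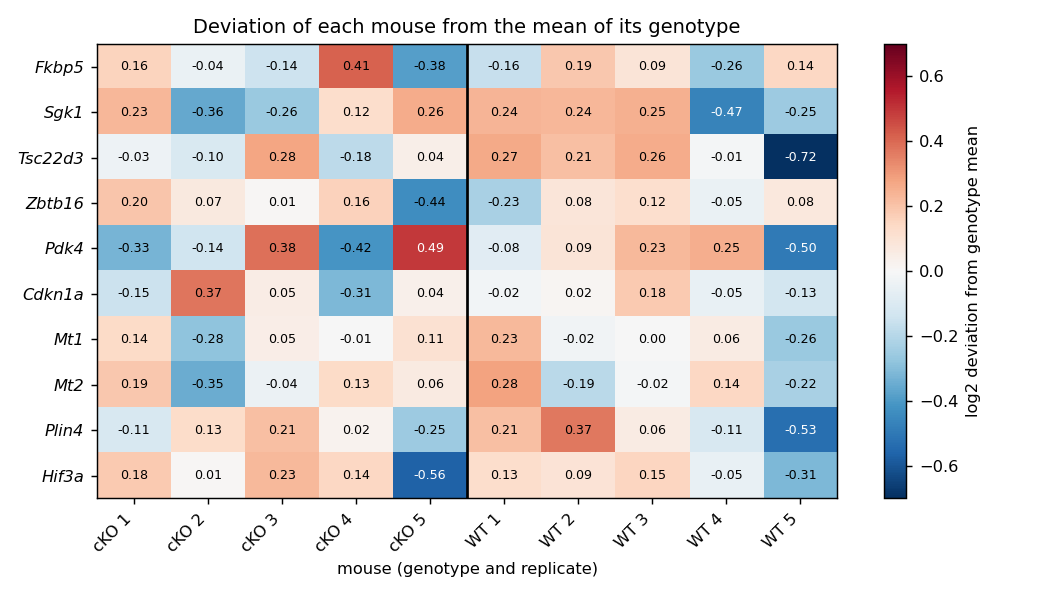
Deviation of each mouse (columns, cKO left of WT) from the mean of its genotype for the 10 genes (rows), on the log2 scale, with red above and blue below the mean. WT replicate 5 has the strongest blue cell, -0.72 for Tsc22d3, while cKO replicate 5 combines -0.56 for Hif3a with 0.49 for Pdk4.

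The 10 genes did not rise and fall as a block from mouse to mouse. WT replicate 5 came nearest to a mouse low throughout, since it was the lowest WT mouse for 7 of the 10 genes and below the WT mean for 8, where it was below that mean for 51.2% of all features. Over all features with complete values it was the lowest WT mouse for 31.7% and the highest for 28.4%, so it was the most extreme WT array in both directions. At Fkbp5 and Zbtb16 it was above the WT mean. The mouse cKO replicate 5 was the lowest cKO mouse for Fkbp5, Zbtb16, Plin4 and Hif3a and the highest for Sgk1 and Pdk4. Over all features it was the lowest cKO mouse for 21.3% and the highest for 30.0%.

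Which genes moved together was measured on deviations from the genotype mean over the 10 mice. For the 45 pairs of genes, Pearson's r was positive in 29, with a median of 0.18, where 50.4% of all feature pairs were positive and the median was 0.006. By exact two-sided permutation of mice within genotype, 6 pairs, or 13.3%, had an unadjusted p under 0.05 and 0 passed after Benjamini-Hochberg adjustment over the 45. Set against all features, the 10 genes had an unadjusted p under 0.05 with 13.8% of them. The share among themselves was near that pooled background. By gene, the background ran from 2.48% for Hif3a and 4.99% for Plin4 to 25.9% for Tsc22d3 and 31.5% for Pdk4. By Spearman's rho the counts were 4 and 0. Values of r of at least 0.7 were found in 4 pairs, or 8.89%, against 5.69% of all feature pairs. Values this high were thus not limited to these genes on these 10 arrays.

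**Figure D4:**
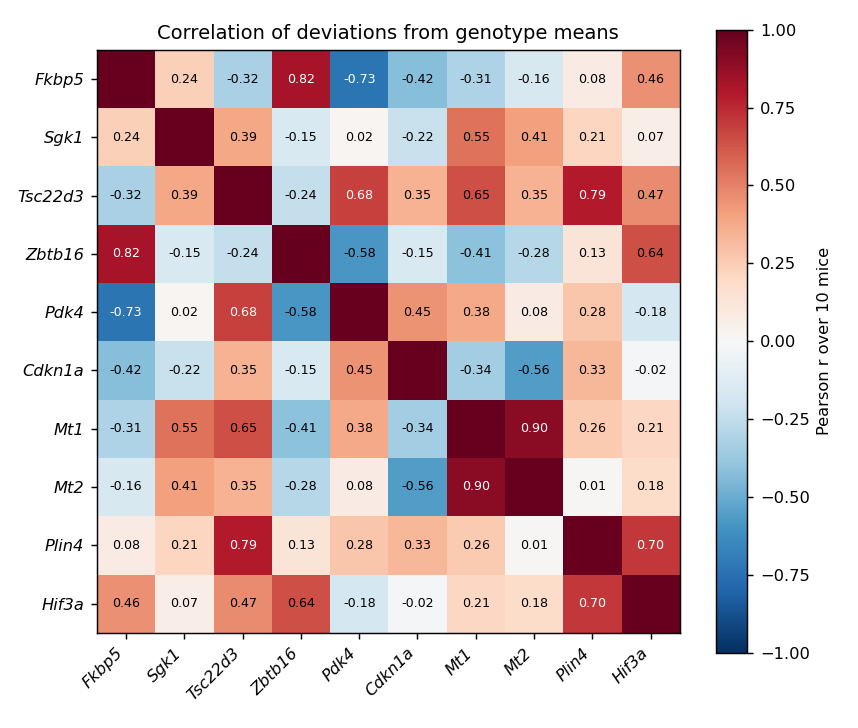
Pearson's r between the 10 genes (rows and columns) of deviations from the genotype mean over 10 mice, on a colour scale from -1 (blue) to 1 (red). The highest value is 0.90 for Mt1 with Mt2 and the lowest is -0.73 for Fkbp5 with Pdk4.

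The closest pair was Mt1 and Mt2, the 2 metallothioneins whose upstream windows are shown above. Their r was 0.90 and rho was 0.89, with exact permutation p = 0.0014 and an adjusted p of 0.062. In order of r with Mt1, Mt2 stood at rank 63 of 23439 features, and Mt1 stood at rank 29 for Mt2. Both cKO replicate 2 and WT replicate 5 were low for both genes. Without these 2 mice, the farthest from the median of Mt1, r was 0.78 with an exact permutation p of 0.069, and with slide means subtracted it was 0.84. By exact permutation within slides, p for the latter was 0.029, with an adjusted p of 0.558. Slides held 4, 4 and 2 arrays, too few to weigh a correlation within a slide. There r was 0.29 on slide 1 and 0.90 on slide 2. Mt1 and Mt2 are paralogs with similar coding sequences, and probe sequences were not used here.

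Fkbp5 and Zbtb16 were the next pair, with r = 0.82 and rho = 0.90. The exact permutation p was 0.0059 for r, with an adjusted p of 0.133. Without cKO replicates 4 and 5, the mice farthest from the median of Fkbp5, r was 0.81, and with slide means subtracted it was 0.77. Zbtb16 ranked 372 of 23439 features by r with Fkbp5, and Fkbp5 ranked 190 for Zbtb16. With all marked spots kept in the background fit, r fell to 0.38.

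Of the 4 other pairs with an unadjusted p under 0.05, 2 held Tsc22d3, for which cKO replicate 3 and WT replicate 5 were farthest from the median. Leaving out the most extreme mice of a gene by itself tends to lower r. Tsc22d3 and Plin4 had r = 0.79 with rho = 0.64, and r = 0.11 without cKO replicate 3 and WT replicate 5. Tsc22d3 and Pdk4 had r = 0.68 with rho = 0.72, and r = 0.29 without the same 2 mice. Without WT replicate 5 alone, r of Tsc22d3 was 0.40 with Plin4 and 0.53 with Pdk4. These were the lowest values with a single mouse left out. Plin4 and Hif3a had r = 0.70 with rho = 0.43, and r = 0.70 without WT replicates 2 and 5. Fkbp5 and Pdk4 ran in opposite directions, with r = -0.73 and rho = -0.71, and r = -0.51 without cKO replicates 4 and 5. Adjusted p over the 45 pairs was 0.263 for each of these apart from Plin4 and Hif3a, where it was 0.144, by the exact permutation test of r.

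**Figure D5:**
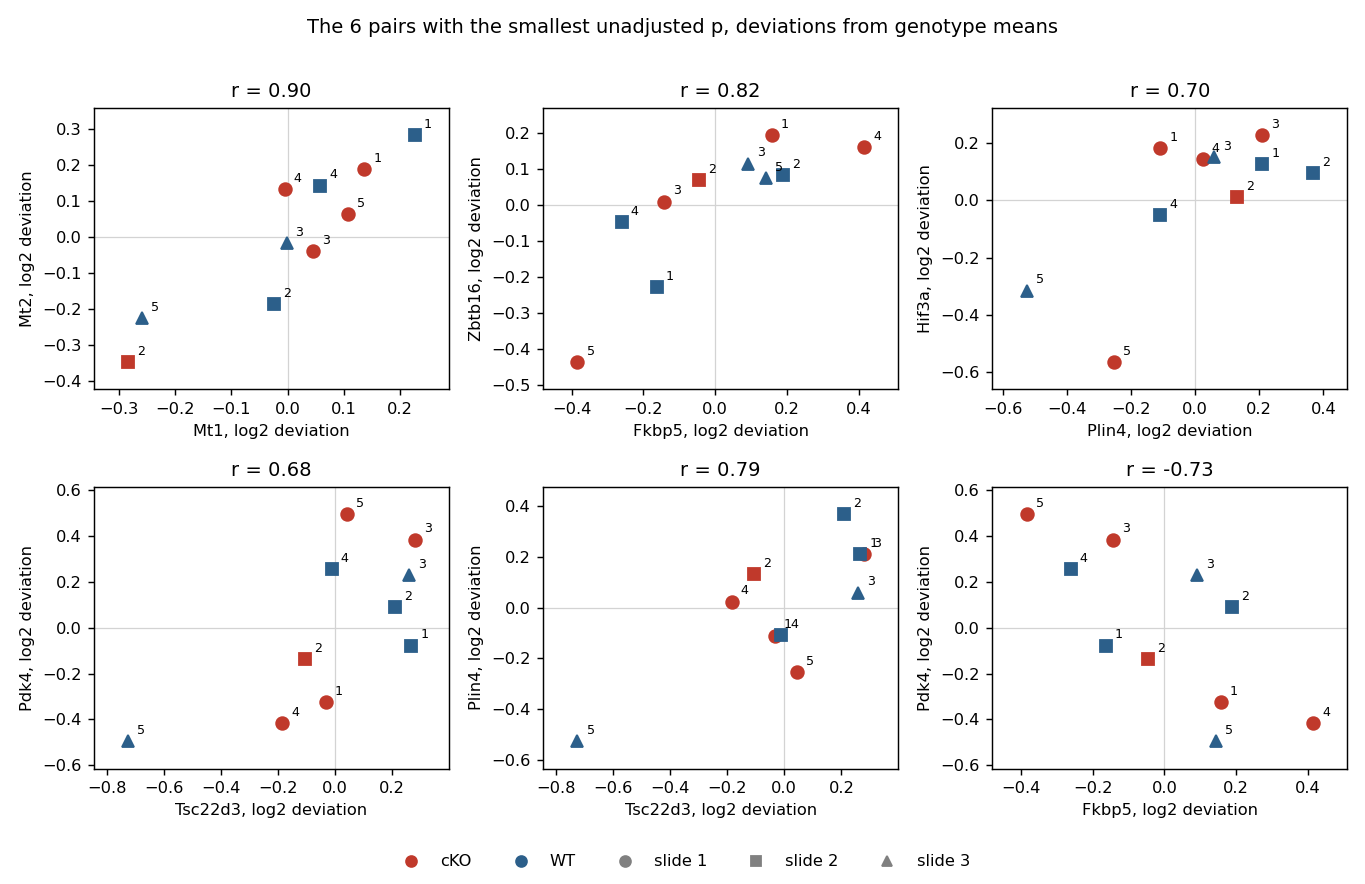
Deviations from the genotype mean (log2) of the 6 pairs of genes with the smallest unadjusted p, each point a mouse numbered by replicate, cKO in red and WT in blue, with marker shape for the slide. Mt1 with Mt2 and Fkbp5 with Zbtb16 line up over most mice, while in both panels with Tsc22d3 WT replicate 5 lies far to the left of the others.

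Levels of cell markers are given beside the 10 genes, and their part in the values was not tested. The 9 measured choroid plexus markers were all higher in cKO samples, with mean log2 ratios per mouse of 1.17 to 2.55 in cKO samples and 0.297 to 1.15 in WT samples. Their r with the 10 genes ranged from -0.59 for Zbtb16 to 0.52 for Cdkn1a, and none had an unadjusted permutation p under 0.05. Taken in each genotype alone (n = 5), r had the same sign in both for Sgk1, Zbtb16, Pdk4 and Cdkn1a. For the other genes the sign differed, most widely for Hif3a, at -0.90 in cKO mice and 0.93 in WT mice. This contrast was not tested. Oligodendrocyte markers had means of 3.51 to 3.75 in cKO mice and 3.07 to 3.56 in WT mice, with 10 of 12 higher. Endothelial and mural markers had means of 1.67 to 1.80 in cKO mice and 1.53 to 1.69 in WT mice, with 10 of 12 higher. Astrocyte markers had means of 4.37 to 4.89 in cKO mice and 4.29 to 4.64 in WT mice, with 8 of 10 higher. All measured markers of these 4 lists were well above background on all 10 arrays.

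Of the 40 correlations of a gene with a marker list within genotype, those of Pdk4 were the highest. Its r was 0.87 with the endothelial and mural list and 0.88 with the astrocyte list (exact permutation, adjusted p = 0.158 and 0.181 over 40 pairs of a gene with a list). Without cKO replicate 4 and WT replicate 5 these were 0.74 and 0.80, and with slide means subtracted 0.80 and 0.94. Fkbp5 had r = -0.76 with the endothelial and mural list, where the adjusted p was 0.181 by the same exact test, and r = -0.60 without cKO replicates 4 and 5. Mt1 had r = 0.73 and Tsc22d3 had r = 0.70 with the astrocyte list, and these were 0.24 and 0.42 without the 2 mice farthest from the median of each gene. The other 2 pairs with an unadjusted p under 0.05 were Zbtb16 with the oligodendrocyte list and Mt1 with the endothelial and mural list. Their r was -0.59 and 0.69, and -0.14 and 0.30 without 2 mice. The 2 mice left out were the most extreme for the gene, a choice that by itself tends to lower r. With a single mouse left out, the weakest values were 0.61 for Mt1 and 0.57 for Tsc22d3 with the astrocyte list. For Zbtb16 with the oligodendrocyte list and Mt1 with the endothelial and mural list they were -0.47 and 0.49. In all, 7 of the 40 pairs, or 17.5%, had an unadjusted p under 0.05, against 20.5% over all features and the same 4 lists, and 0 passed after adjustment. The share for the 10 genes was thus near that of any feature. By list, 33.5% of all features were under that threshold with astrocyte and 30.8% with endothelial and mural markers, against 3 of the 10 genes each. With oligodendrocyte markers it was 10.7%, against 1 gene, and with choroid plexus markers 6.8%, against 0.

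The features whose deviations were most like those of each gene were sought over 23440 features with complete values, and the 3 named genes of highest r are given. For Fkbp5 they were Arhgef3, Utp4 and Mrtfa, with r of 0.97 to 0.98. For Tsc22d3 they were Elovl2, Klf15 and Cct3, at 0.97 each. For Sgk1 they were Deup1, Hipk1 and Nfkbia, at 0.93 to 0.95. For Zbtb16 they were Prr22, Dcaf1 and Phf23, at 0.94 to 0.95. For Pdk4 they were Wwtr1, Lap3 and Mettl23, at 0.98 each. Mt1 had Frs2, Dap and Cyp4f15 at 0.96 to 0.97, and Mt2 had Coro1b, Pgls and Hras at 0.95 to 0.98. Plin4 had Ddias, Pold3 and Kank3 at 0.93 to 0.96, Cdkn1a had Rere, Ifi44l and Lag3 at 0.92 to 0.96, and Hif3a had Cd200r4, Atg16l1 and Zfp946 at 0.89 to 0.94. No member was among the 3 genes most like another member. The highest of 23440 values of r over 10 mice is high for nearly any gene, and these are given as a description.

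The machinery that carries the hormone signal gave no call. Of 17 measured genes for the receptors, their chaperones and cofactors, and hormone metabolism and export, 12 had higher and 5 lower cKO means, with a median difference of 0.05, and 0 passed in limma. Nr3c1, the glucocorticoid receptor, differed by 0.03 (SE 0.06), and Hsd11b1, which regenerates active hormone inside cells, by 0.05 (SE 0.12). Nr3c2, the mineralocorticoid receptor, had the smallest unadjusted p, 0.036 in limma, and differed by 0.27 (SE 0.12). Abcb1a, which encodes a drug and steroid exporter of the blood-brain barrier, differed by 0.58 (SE 0.37), and Bag1, a co-chaperone, by 0.06 (SE 0.05).

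A further 24 genes known to be raised by glucocorticoids had no common direction, with 14 higher and 10 lower cKO means, a median difference of 0.01 and 0 calls. Arrdc2, an arrestin-family adaptor, differed by 0.20 (SE 0.08), and Ddit4, an inhibitor of mTOR signalling, by -0.20 (SE 0.09). At an unadjusted p under 0.05 in limma, 1 of the 24, Arrdc2, was higher and 1, Ddit4, was lower, against 3.82% of all probes. Angptl4, a secreted inhibitor of lipoprotein lipase, differed by -0.19 (SE 0.10). Averaged over the 24 genes, single mice had log2 ratios of 0.476 to 0.541 in cKO samples and 0.446 to 0.560 in WT samples, so the WT range held the cKO range.

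Genes with roles next to single members gave no call either. Of 6 genes of the metallothionein family and zinc handling, 3 had higher and 3 lower cKO means, with Mtf1, the metal-sensing transcription factor, at 0.09 (SE 0.06), Slc30a3 at -0.08 (SE 0.09) and Slc30a1 at 0.07 (SE 0.09), both zinc transporters. Of 11 genes of p53 and its targets other than Cdkn1a, 5 were higher and 6 lower, with Btg2 at -0.19 (SE 0.07), Phlda3 at 0.24 (SE 0.10) and Plk2 at 0.20 (SE 0.10). Of 12 relatives of Pdk4 and Plin4 and other genes of fat use, 10 were higher, with a median difference of 0.03, and Plin5, Pdk3 and Plin3 differed by 0.23 (SE 0.09), 0.09 (SE 0.06) and 0.17 (SE 0.15). Of 11 genes of the hypoxia-inducible factor pathway, 10 were higher, with a median difference of 0.05. Slc2a1, the glucose transporter of brain endothelium, differed by 0.34 (SE 0.13), Egln2 by 0.07 (SE 0.05) and Ankrd37 by 0.10 (SE 0.10). At an unadjusted p under 0.05 in limma, these 4 lists of 40 genes held 4, Btg2, Phlda3, Plin5 and Slc2a1, of which Btg2 was lower in cKO samples. Among all 23574 features 666 were higher and 242 lower at that threshold, and 3.82% of all 28682 probes were under it.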

How the data were processed

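Spots were read by the authors with Agilent Feature Extraction 11.0.1.1, per the file headers. The deposited files hold unnormalised median intensity values per spot and local background in both channels, and processed signals with their log10 ratio. The authors' deposited value table holds log2 values, whose correlation with the ratios computed here was at least 0.99998 on every array (column medians 0.0120 to 0.0204); the submitters' processing notes name limma, with no settings.

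From the medians, backgrounds were corrected by normexp (offset 50, which pulls ratios of dim spots towards 0) and ratios normalised within arrays by loess, with limma 3.58.1 in R 4.3.3. Control spots (1377 of 44397) had weight 0, marked spots were left out, and spots of a probe were averaged. Probes with Cy5 well above background on at least 5 of 10 arrays were kept. Accessions named 26581 of 39429 probes through a GRCm38.p6 gene table; the array headers name another build, so no probe coordinates are given. Genotypes were compared by lmFit and eBayes, two-sided, with Benjamini-Hochberg adjustment over 28682 probes. Pairs of genes were tested by exact permutation within genotype (14400 orders, smallest p 6.94e-05) with Python 3.11.15, numpy 2.4.6 and scipy 1.17.1. The precision is limited by 5 arrays per genotype. Scripts were tested on simulated data. The genes named beside the members are, for each list, the 3 with the smallest unadjusted p, plus the receptor gene and Hsd11b1, chosen after their values were seen. The members and lists were chosen with earlier results of these data known. Alternatives covered background correction, normalisation, filter, probe choice, slide, array weights, replicate number and each array left out.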

Additional observations from a re-analysis of the deposited data

Results flagged for a closer look

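Of 26 groups of 5 values, 1 per probe and genotype, 3 had a mouse far from the rest, judged by its gap to the nearest value over the whole range; chance flags about 1 group in 20. Tsc22d3 was 0.89 in WT replicate 5, where the other WT mice had 1.61 to 1.88. The dim Cdkn1a probe A_55_P1986282 was -0.78 in cKO replicate 5, where the others had -0.49 to -0.41. Hif3a at its brightest probe was 0.24 in cKO replicate 5, where the others had 0.82 to 1.03.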

How the results depend on the processing

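The probes of the 10 genes gave 0 calls under all 25 alternatives to the genotype fit, which tested all 13 of them except for 11 under the filter that asks for all 10 arrays and 10 with 1 probe per gene. At an unadjusted p under 0.05 the count was 0 of 13, and 0 to 2 over the alternatives, with 2 when slide was a fixed block (3.75% of all probes) or cKO replicate 5 was left out (3.67%). Over all probes 3 were called, 1 with 1 probe per gene, with the Cy5 channel alone or with all spots in the background fit, 0 within slide 2, and 2 to 4 with an array left out. Zbtb16, the bright Hif3a probe and the bright Cdkn1a probe kept their sign in all 25, and the dim Cdkn1a probe in the 24 that held it. Signs turned at other probes, none past the threshold on either side. With median centring Fkbp5 was at -0.076, Mt1 at -0.038 and Plin4 at -0.034. With the Cy5 channel alone Fkbp5 was at -0.011 and Hif3a A_55_P2161423 at 0.080, and with processed signals Hif3a A_55_P2161423 was at 0.026 and A_55_P2025730 at 0.13. With all spots in the background fit Pdk4 was at 0.056. With slide as a fixed block, as within slide 2, Sgk1 was at -0.25, Tsc22d3 at -0.083, Mt1 at -0.30 and Mt2 at -0.28. With array weights Tsc22d3 was at -0.00090 and Plin4 at -0.041. With an array left out, Fkbp5 ranged from -0.086 to 0.11, Pdk4 from -0.19 to 0.038, Plin4 from -0.083 to 0.14, Sgk1 from -0.0096 to 0.20 and Tsc22d3 from -0.0044 to 0.24. The cause was not tested.

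Of the 45 gene pairs 0 passed, 1 without subtraction of the genotype mean (Mt1 and Mt2, r = 0.90, adjusted p = 0.0095 by a permutation test of 100000 resamples), 2 with median centring (Fkbp5 and Zbtb16, r = 0.91, exact adjusted p = 0.0094; Mt1 and Mt2, r = 0.91, 0.025), and 0 to 1 with an array left out. Without cKO replicate 4 the passing pair was Mt1 and Mt2 (r = 0.93, exact adjusted p = 0.016). Over all alternatives r ranged from 0.66 to 0.94 for Mt1 and Mt2 and from 0.38 to 0.91 for Fkbp5 and Zbtb16. No pair of a gene with a marker list passed under any alternative run.

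Deviations of mice with the same replicate number had correlations of -0.56 to 0.16 over the 5 numbers. Mice with unlike numbers were not compared, so whether the numbers mark pairs was not tested. They serve here as names of the samples. With the replicate number as a block, 0 of the 13 probes and 2 probes in all were called. Dim probes limit what can be read from the second Cdkn1a probe and the other 2 Hif3a probes, which were not well above background on every array in the case of Hif3a.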
